A study of Saccharomyces cerevisiae with 4 samples.

Results

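The histone genes of budding yeast were examined as a family of 10: HTA1 and HTA2, which encode histone H2A, HTB1 and HTB2 (H2B), HHT1 and HHT2 (H3), HHF1 and HHF2 (H4), HTZ1, which encodes the variant H2A.Z, and HHO1, which encodes the linker histone H1. They were taken by gene symbol from the platform annotation, and all 10 were found among the 5539 genes named on the array. Each had 2 spots, both measured on all 4 arrays, so all 10 were among the 4481 genes with a value on every array.

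Each array compared 2 RNA samples of a BY4741 strain that lacks SLT2, the last kinase of the cell wall integrity cascade. The treated cells were slt2-deleted cells kept for 4 h in rich medium (YEPD) at 24 °C with 30 µg/ml the dye Congo red, which attaches to chitin and weakens the wall. The untreated cells were the other part of the divided slt2-deleted culture, grown at 24 °C without the dye. Both samples lack the kinase, so no cells with SLT2 enter any value. Treated RNA was in channel 2 on arrays 1 and 3 and in channel 1 on arrays 2 and 4, and the labels do not say whether the arrays came from separate cultures, so p-values measure the spread between arrays, which may be technical.

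Core histones form the octamer around which DNA is wrapped. In yeast each is encoded by a pair of genes, arranged so that an H2A gene lies beside an H2B gene and an H3 gene beside an H4 gene, transcribed away from each other from a shared control region. These 8 genes are transcribed mainly in late G1 and S phase, when DNA is copied. Most of them, though not all, are held down at other times by the HIR repressor complex. HTZ1 is made outside this programme and its product is placed by the SWR1 complex at nucleosomes beside promoters. The reference gene table placed each of the 4 gene pairs side by side, with 0 genes between them and in divergent orientation.

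Values are log2 ratios of Congo red over untreated RNA, averaged over the spots of a gene, after each array's median was subtracted and arrays 2 and 4 were multiplied by -1. Between 84.1% and 90.9% of 12800 spots on an array were usable. The precision is set by having only 4 arrays. On the deposited scale, arrays of opposite channel order correlated below 0 across spots (r between -0.38 and -0.19), whereas pairs of like order gave r = 0.27 and 0.31, which is why arrays were turned. That a positive value means more RNA in treated cells is only likely: the labels call the untreated sample the control. Turned round, every sign below would reverse together. SLT2 is deleted in both channels and so checks no label; its spots gave 1.48, -1.29, -1.51 and -1.14 on arrays 1 to 4. Both channels hold the same strain, so ratios of marker genes cannot check the labelled cell type. Of 7 genes specific to mating type a, all measured, 3 were lower and 0 higher on 4 of 4 arrays, with medians between -1.14 and 0.07 on an array. Of 4 genes of the other mating type 2 were measured on every array, both lower on all 4, with medians between -2.48 and -1.05. Of 9 meiosis genes 7 were measured on every array, and 5 of them were lower and 0 higher on 4 of 4 arrays. Medians of the 7 lay between -0.98 and -0.69. The other 2 went the other way on average, IME2 at 0.93 over 2 arrays and NDT80 at 2.01 over 3. Over all genes 21.3% were lower and 20.4% higher on 4 of 4 arrays. The part of these markers in the histone values was not tested.

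The core histone genes stood lower in Congo red cells than in untreated cells. All 8 were below 0 on 4 of 4 arrays, with means between -0.77 and -0.47 and a mean over the 8 genes of -0.57 ± 0.23 (SD over arrays, n = 4), a ratio of 0.676. HTZ1 and HHO1 stood nearer to 0, at -0.20 ± 0.31 and -0.095 ± 0.40 (n = 4). None of the 10 passed limma's test over all 4481 genes, in which 0 genes (0.0%) had an adjusted p under 0.05 and 1234 (27.5%) an unadjusted p under 0.05. At an unadjusted p under 0.05 (limma) 7 of the 8 core genes were lower, all but HTA2, where 14.4% of all genes were. Being lower on 4 of 4 arrays was common to 21.3% of all genes. RNA of whole cultures was measured, so fewer cells in S phase and less histone RNA per cell cannot be told apart.

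**Figure D1:**
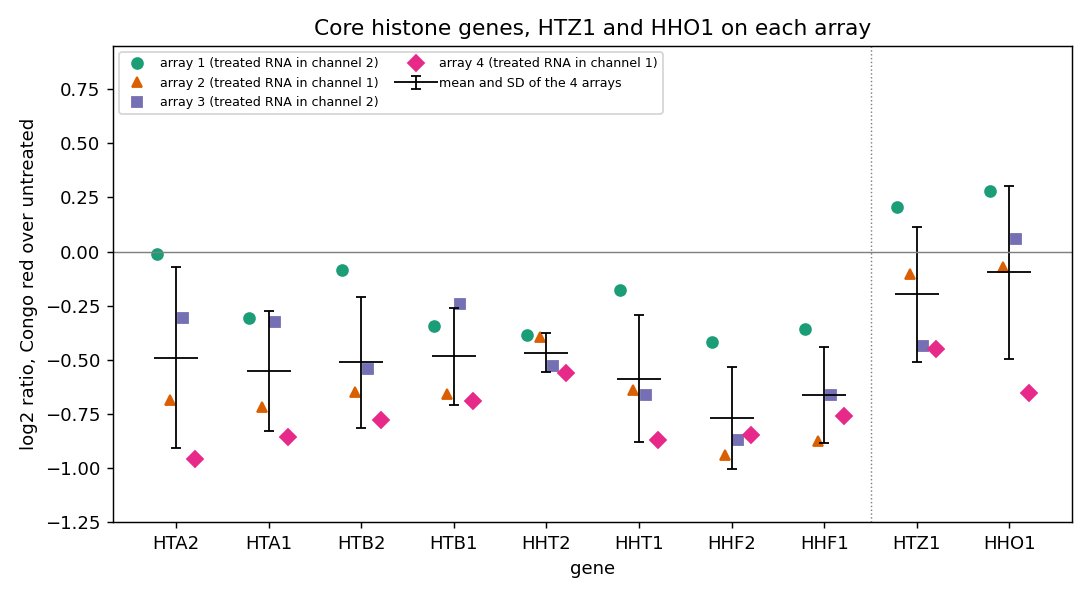
Log2 ratios of Congo red over untreated RNA (y axis) of the 10 histone genes (x axis), one symbol per array, with the mean and SD over 4 arrays as black bars. The 8 core genes left of the dotted line lie below 0 on every array, while HTZ1 and HHO1 have values on both sides of 0.

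Histone H4 genes had the lowest means of the family, though on array 4 HTA2, HHT1 and HTA1 lay below both. HHF1 was also above HHT2 on array 1, HHT1 on array 3 (-0.66 against -0.664) and HTB2 on array 4. HHF2 gave -0.42, -0.94, -0.87 and -0.85 on arrays 1 to 4. HHF1 gave -0.36, -0.87, -0.66 and -0.76. On both genes array 1 was the nearest to 0, and the other 3 arrays lay close together. Their means were -0.77 ± 0.24 for HHF2 (0.587-fold, adjusted p = 0.0704, limma) and -0.66 ± 0.22 for HHF1 (0.632-fold, adjusted p = 0.0802, limma), and the 95% interval of HHF2 from the same fit ran from -1.14 to -0.39. Among the 4481 genes, 6.8% had a mean below that of HHF2 and 9.0% below that of HHF1.

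Of the H3 genes, HHT2 varied little between arrays and HHT1 more. HHT2 gave -0.39, -0.40, -0.53 and -0.56 on arrays 1 to 4, the narrowest range of the family. HHT1 gave -0.18, -0.64, -0.66 and -0.87. The copies changed places between arrays, HHT2 being the lower one on array 1 and HHT1 on the other 3. Means were -0.47 ± 0.09 for HHT2 (adjusted p = 0.0968, limma) and -0.59 ± 0.29 for HHT1 (adjusted p = 0.11, limma).

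Among the H2A and H2B genes HTA2 had the widest range between arrays. HTA2 gave -0.009, -0.69, -0.31 and -0.96 on arrays 1 to 4, and HTA1 gave -0.31, -0.72, -0.33 and -0.86. HTB2 gave -0.085, -0.65, -0.54 and -0.78, and HTB1 gave -0.35, -0.66, -0.24 and -0.69. For these 4 genes arrays 2 and 4, where treated RNA was in channel 1, were lower than arrays 1 and 3. Means were -0.49 ± 0.42 for HTA2, -0.55 ± 0.28 for HTA1, -0.51 ± 0.30 for HTB2 and -0.48 ± 0.23 for HTB1, with adjusted p between 0.115 and 0.192 (limma). HTA2 was the only core gene whose 95% interval reached 0, running from -1.001 to 0.02.

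The same difference by channel order was seen in the mean of the core genes. Their mean was -0.39 over the 2 arrays with treated RNA in channel 2 and -0.74 over the 2 with it in channel 1. As a second coefficient in the limma model, channel order gave the 8 core genes values between 0.010 and 0.33, none past the threshold (lowest unadjusted p 0.0834, lowest adjusted p 0.872, limma), and 0 of 4481 genes (0.0%) passed for that coefficient, with 182 (4.06%) at an unadjusted p under 0.05. Before turning, with arrays centred, all 8 core genes lay below 0 on arrays 1 and 3 and all 8 above 0 on arrays 2 and 4. Left unturned, the 8 means fell between 0.010 and 0.33 and none passed (adjusted p = 0.999, limma). With 2 arrays of each channel order these means are the channel order coefficients again, so they do not measure treatment.

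Spots of the same core gene repeated each other closely. The largest gap between the 2 spots of a core gene was 0.123, 0.101, 0.121 and 0.073 on arrays 1 to 4, below the median gap over all genes with 2 spots (0.255, 0.142, 0.136 and 0.180). HTZ1 was less even, with gaps of 0.277 on array 2 and 0.326 on array 4. The differences between arrays for the core genes were thus larger than those between spots.

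An analysis restricted to genes whose spots repeated each other gave calls. A gene counted as measured on an array where at least 2 spots lay within 1 log2 unit. The filter left every histone mean as it was, and tested 2804 genes. It was taken over from earlier work on these data with its calls known. In it HHF2 (adjusted p = 0.0156), HHF1 (0.0203), HHT1 (0.0346), HHT2 (0.0369), HTA1 (0.0391) and HTB1 (0.0464) fell, 6 of 8 core genes, where 11.5% of all genes tested fell (limma). At an unadjusted p under 0.05 all 8 were lower, where 22.3% of all genes were (limma). HTB2 (adjusted p = 0.0511) and HTA2 (0.0885) did not pass, nor did HTZ1 (0.385) and HHO1 (0.717). Without array 1 the calls numbered 4 of 8 (HTB2, HHT1, HHF1 and HHF2), where 5.62% of all genes fell, and without array 2 1 of 8 (HHF2), where 4.33% fell. Without array 3 or array 4 none of the 8 passed, nor did any of the 2872 and 3019 genes tested. At an unadjusted p under 0.05 (limma) 8 of 8 were lower without array 3, where 15.8% of all genes were, and 7 of 8 without array 4, where 19.0% were.

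HTZ1, which replaces H2A in part of the nucleosomes, gave 0.20, -0.10, -0.44 and -0.45 on arrays 1 to 4. It was above 0 on array 1 and lowest on arrays 3 and 4. The test gave an adjusted p of 0.471 (limma), with a 95% interval of the mean from -0.62 to 0.23. HHO1, the linker histone that binds DNA between nucleosomes, gave 0.28, -0.069, 0.058 and -0.65. Array 4 stood apart from the other 3, and without it the mean was 0.090 in place of -0.095. Its adjusted p was 0.765 (limma), and its 95% interval ran from -0.59 to 0.40.

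Core genes lay below both of these genes in most array-by-array comparisons. The mean of the 8 core genes minus HTZ1 was -0.47, -0.59, -0.080 and -0.34 on arrays 1 to 4 (mean -0.37 ± 0.22, n = 4), and all 8 core genes were below HTZ1 on arrays 1, 2 and 4 and 5 of 8 on array 3. The exceptions on array 3 were HTA1, HTA2 and HTB1. The mean of the core genes minus HHO1 was -0.54, -0.63, -0.58 and -0.14 (mean -0.47 ± 0.22, n = 4). All 8 were below HHO1 on arrays 1, 2 and 3 and 7 of 8 on array 4, where HHT2 was above it. Such differences within an array do not depend on the subtraction of one median per array.

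Taken one by one, 5 of 8 core genes were lower than HTZ1 on 4 of 4 arrays and 7 of 8 lower than HHO1. The largest mean differences were those of HHF2, -0.57 ± 0.20 against HTZ1 and -0.67 ± 0.33 against HHO1 (n = 4). HHT1 had the most even difference from HTZ1, at -0.39 ± 0.13, with -0.38, -0.53, -0.23 and -0.42 on arrays 1 to 4. The smallest was that of HHT2 from HTZ1, -0.27 ± 0.23. An exact two-sided sign-flip permutation test over 4 arrays cannot give a p below 0.13. The 12 comparisons with 1 sign on all arrays reached that value, and the other 4 gave 0.25 (exact permutation test). Adjusted over the 16 comparisons, p lay between 0.167 and 0.25 (exact permutation test), so none passed. The order of the means, all 8 core genes below HTZ1 and below HHO1, held under each processing tried except with no array turned, when 1 was below HTZ1 and 7 below HHO1. Many of these settings could not change it. The filter on spots, the median of spots and the other limma models left member means as they were, and centring moves all genes of an array alike. Runs of 400 spots, removal of the span trend and leaving out an array could have changed it.

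**Figure D2:**
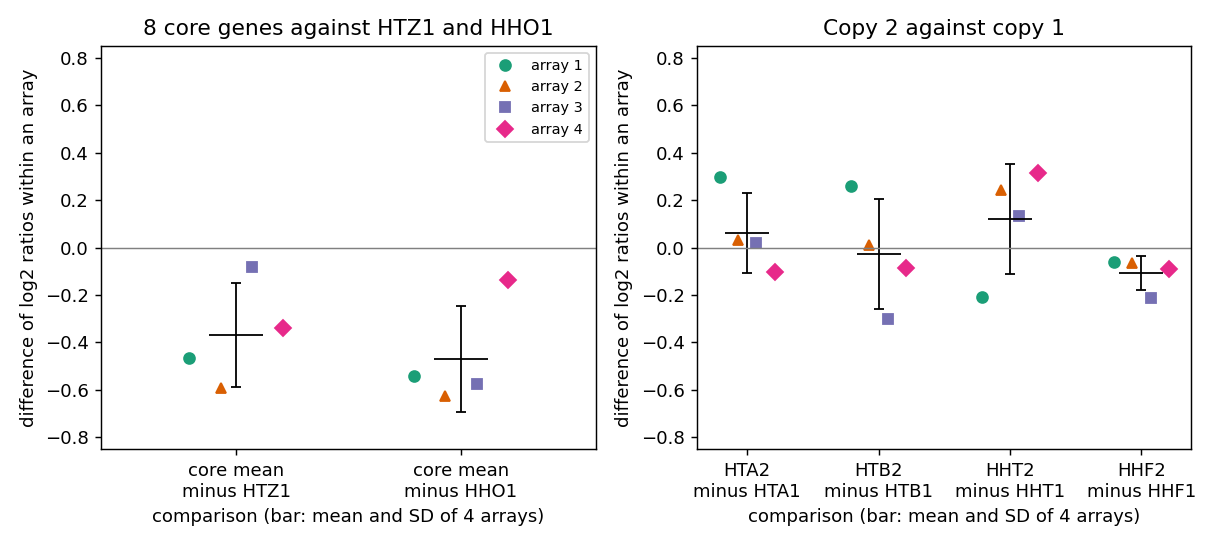
Differences of log2 ratios within an array (y axis, one symbol per array, bars for mean and SD). Left: the mean of the core genes minus HTZ1 or HHO1 is below 0 on all 4 arrays. Right: copy 2 minus copy 1 of each core histone lies on both sides of 0 except for HHF2 minus HHF1.

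Copy 2 and copy 1 of the core histones were close. The H2A pair differed by 0.30, 0.032, 0.019 and -0.10 (HTA2 minus HTA1, arrays 1 to 4), a mean of 0.06 ± 0.17 (n = 4). The H2B pair differed by 0.26, 0.011, -0.30 and -0.086 (HTB2 minus HTB1), a mean of -0.03 ± 0.23. The H3 pair differed by -0.21, 0.24, 0.14 and 0.31 (HHT2 minus HHT1), a mean of 0.12 ± 0.23. In each of these pairs the sign changed between arrays. Only the H4 pair kept its sign, with HHF2 minus HHF1 at -0.062, -0.066, -0.21 and -0.089 and a mean of -0.11 ± 0.07 (n = 4).

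None of these differences passed. In the exact two-sided sign-flip permutation test p was 0.625 for H2A, 0.75 for H2B, 0.375 for H3 and 0.13 for H4, the last being the smallest possible, and adjusted over the 4 pairs 0.75, 0.75, 0.75 and 0.5 (exact permutation test). HHF2 minus HHF1 turned to 0.075 when runs of 400 neighbouring spots were centred, so the direction of the H4 difference depended on the processing. Averaged over the 4 histones, copy 2 stood at -0.56 ± 0.24 and copy 1 at -0.57 ± 0.23 (n = 4). The copies of H3 and of H4 encode identical proteins, those of H2A and H2B nearly so, and their similar coding sequences can hybridise to each other's spots, so the values of a pair are uncertain as measures of the single genes.

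Genes that share a control region were about as alike as copies. As a measure of likeness the root mean square difference of 2 genes over the 4 arrays was used. It was 0.099 for HTB1 and HTA1, 0.154 for HTB2 and HTA2, 0.159 for HHT1 and HHF1, and 0.352 for HHT2 and HHF2. The last pair stood apart because HHT2 lay above HHF2 by a mean of 0.30. Copies gave 0.123 to 0.233 (4 pairs) and the 20 remaining pairs of core genes 0.091 to 0.375, median 0.231. Core genes with HTZ1 gave 0.336 to 0.598 and with HHO1 0.416 to 0.733 (8 pairs each), and HTZ1 with HHO1 0.27. These are descriptions over 4 arrays, with no test.

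Genes outside the family were as near to the core mean as its own members. By root mean square difference over the 4 arrays the 5 nearest were OST4 (0.042), MAK3 (0.074), BOL2 (0.080), MRPL36 (0.080) and AIM20 (0.085). OST4, a small subunit of the enzyme that attaches glycans to proteins in the endoplasmic reticulum, gave -0.31, -0.63, -0.52 and -0.78, almost the core means of -0.26, -0.69, -0.52 and -0.79. MRPL36 encodes a mitochondrial ribosomal protein and MAK3 a subunit of an N-terminal acetyltransferase. HTB2, the nearest member, had 6 genes nearer than itself, HHF2 had 126, and HTZ1 and HHO1 had 645 and 1065.

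Short genes as a class had low ratios, and the core histone genes are short. The 8 core genes span 312 to 411 bp and HTZ1 405 bp, while HHO1 spans 777 bp. Other genes between 300 and 420 bp, 226 in all, had a median of -0.31 (quartiles -0.63 and 0.093), and 103 of them (45.6%) were lower on 4 of 4 arrays. Without 7 of them that encode ribosomal proteins, all lower on 4 of 4 arrays, the median was -0.29 over 219 genes. Not every such gene was removed, so that median is not free of them. MRPL50, for a mitochondrial ribosomal protein (420 bp, mean 0.254), stayed. Other genes for mitochondrial ribosomal proteins in this range lay below 0, among them MRP2 (-0.764), MRP17 (-0.686), MRPL37 (-0.636) and MRP49 (-0.051). Which of these stayed is not given here. The core mean minus the median of all other genes of the fit was -0.59, and minus that of these short genes -0.25. All 8 core genes were below the median of the short genes, and 2, HHF2 and HHF1, below their lower quartile; 12.8% of the short genes had a mean below HHF2 and 37.6% a mean below HHT2.

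By array, the core mean minus the median of the short genes was -0.081, -0.32, -0.26 and -0.39 on arrays 1 to 4. HTZ1, of the same span, minus that median was 0.38, 0.27, -0.17 and -0.049. HTZ1 was thus above the middle of the short genes on arrays 1 and 2 and below it on arrays 3 and 4. HHO1, at -0.095, lay close to the median of -0.080 of 343 genes between 700 and 850 bp. Across the 4476 genes with a span, mean ratio and span had a rank correlation of 0.23, a description across genes, which are not independent replicates. Whether length, or something that goes with it, sets the core histone values was not tested.

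**Figure D3:**
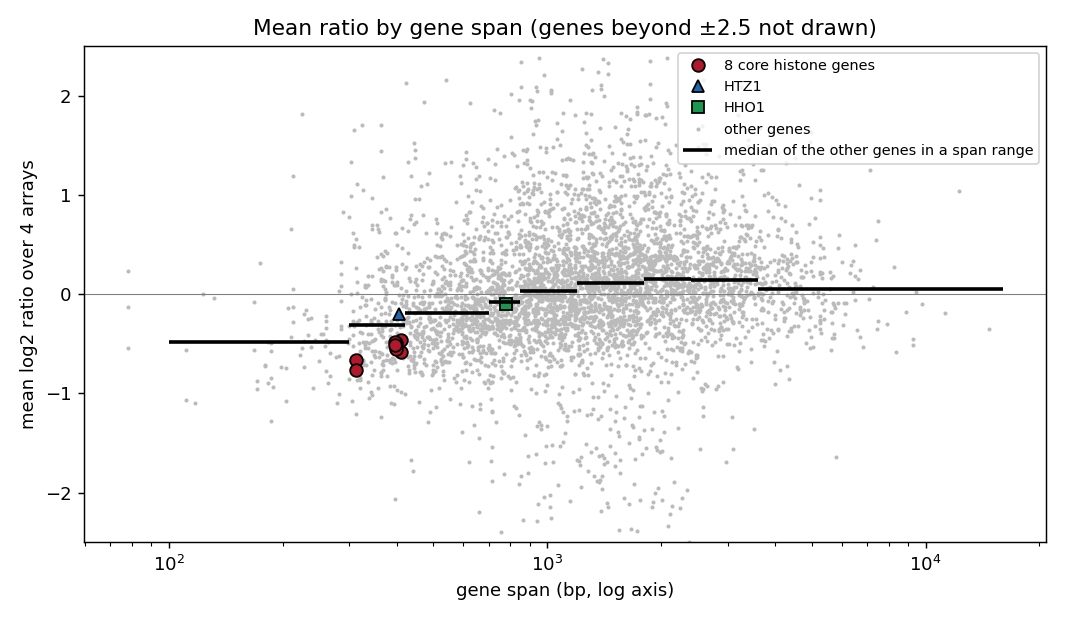
Mean log2 ratio over 4 arrays (y axis) against gene span in bp (x axis, log scale) for the histone genes and all other genes, with black lines for the median of the other genes in a span range. The 8 core genes lie below the median of -0.31 of genes between 300 and 420 bp, HTZ1 lies above it, and HHO1 lies near the median of its span range.

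With a trend with span removed on each array, the core means moved to between -0.40 (HHF2) and -0.19 (HHT2), and their mean to -0.26. None passed (adjusted p between 0.142 and 0.46, limma), where 0.492% of all genes passed lower, and 1 of 8, HHF2, was lower at an unadjusted p under 0.05, where 13.8% of all genes were. Lower on 4 of 4 arrays were then 5 of 8, against 21.5% of all genes, the exceptions being HTA2, HTB1 and HTB2. HTZ1 moved to 0.08 ± 0.26 and HHO1 to -0.033 ± 0.36, so the core mean stayed below HTZ1, with a difference of -0.34, and below HHO1, with one of -0.23. Together with the filter on spots, removal of the trend left the core means between -0.33 and -0.11 and 0 of 8 passing (adjusted p between 0.113 and 0.601, limma), where 3.0% of all genes passed lower; 1 of 8 was lower at an unadjusted p under 0.05, where 14.9% were, and 2 of 8 were lower on 4 of 4 arrays, where 20.5% were.

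Centring also mattered to single arrays. Without it the core means were between -0.69 and -0.38, 0 of 8 genes passed (adjusted p between 0.424 and 0.719, limma; 0 of 8 at an unadjusted p under 0.05, where 4.44% of all genes were lower), and 0 of 8 were lower on 4 of 4 arrays, where 1.0% of all genes passed lower and 9.44% were lower on 4 of 4. When runs of 400 spots were centred in place of whole arrays, HHF1 (-0.79, adjusted p = 0.0455) and HHF2 (-0.72, adjusted p = 0.0474) fell (limma), 2 of 8, where 3.57% of all genes fell, and HTA2 and HHT2 moved to -0.31 and -0.28. HTZ1 and HHO1 stood at -0.018 and -0.048 in that setting.

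**Figure D4:**
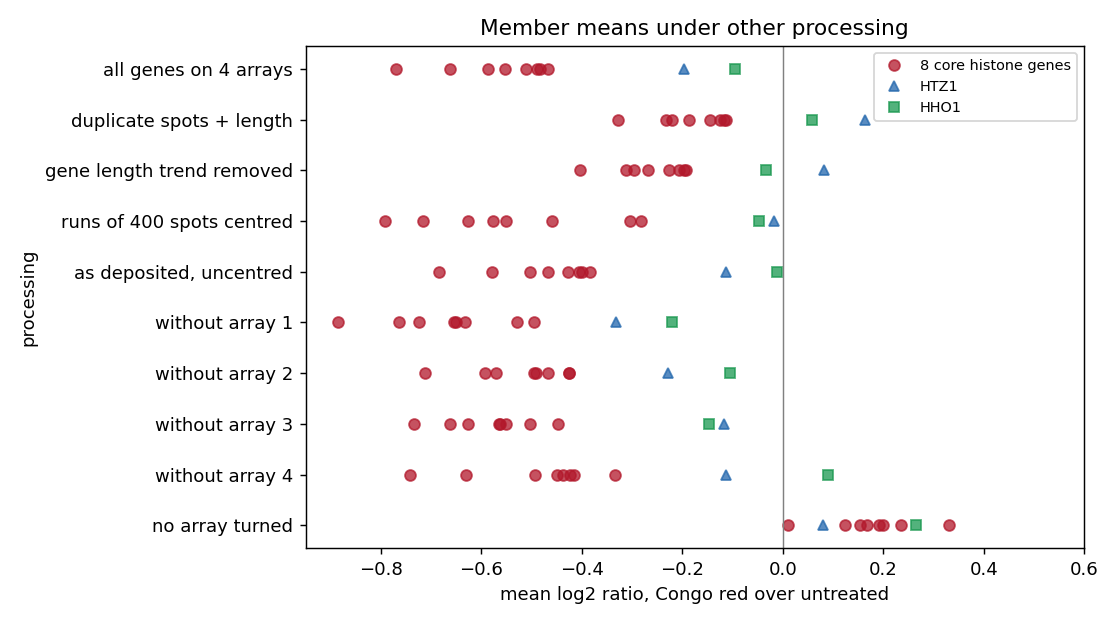
Mean log2 ratio (x axis) of each histone gene under 10 ways of processing (rows), with circles for the 8 core genes, a triangle for HTZ1 and a square for HHO1. Core genes lie left of HTZ1 and HHO1 in every row except the last, in which no array was turned.

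Genes that control histone transcription stood on both sides of 0. Of 16 such genes, all measured, 2 were lower and 5 higher on 4 of 4 arrays (21.3% and 20.4% of all genes), and the median was 0.32 against 0.02 for all genes. It was 0.19 with the span trend removed, 0.10 over the 8 genes kept by the filter on spots, where all genes had -0.06, and 0.041 with both. None passed over all genes (lowest adjusted p 0.0669, limma). At an unadjusted p under 0.05 (limma) 2 were lower and 2 higher, where 27.5% of all genes passed in either direction. HIR3, a subunit of the HIR repressor of histone genes, gave 1.86, 0.83, 1.18 and 2.25 (mean 1.53 ± 0.65, adjusted p = 0.0669, limma), above 0 on every array. Of the other HIR subunits, HPC2 (0.34 ± 0.22) was above 0 on every array too. HIR1 (0.615 ± 0.93) and HIR2 (-0.075 ± 0.27) had values on both sides of 0. YTA7, a chromatin ATPase that acts at histone genes, ranged from -0.27 on array 1 to 1.71 on array 4 (0.76 ± 0.84). NHP6A and NHP6B, short genes for paired HMG-box proteins, stood at -1.01 ± 0.86 and -0.85 ± 0.33. NHP6B was the only one of 8 listed genes tested that fell in the analysis restricted by spots (adjusted p = 0.0158, limma), near the 11.5% of all genes that fell there. HIR3, YTA7 and NHP6A were not kept by the filter on spots and so were not tested there.

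Factors that handle histones outside chromatin had a median of 0.16 over 9 of 12 genes, with 0 lower and 3 higher on 4 of 4 arrays (21.3% and 20.4% of all genes). The sign of that median was not fixed: it was -0.083 over the 4 genes kept by the filter on spots, -0.032 with genes measured on at least 3 arrays, 0.039 with the span trend removed, -0.034 without array 1 and -0.093 without array 4. MSI1, a subunit of the assembly factor CAF-1 that places H3 and H4 behind the replication fork, gave 1.76, 1.33, 1.91 and 1.49 (mean 1.63 ± 0.26, adjusted p = 0.0522, limma), just outside the threshold. POB3, a subunit of the FACT chaperone, ranged from -1.73 to 3.94 and is poorly fixed (0.80 ± 2.34). HAT2 and HIF1, which work with the acetyltransferase of newly made H4, stood at -0.32 ± 0.46 and -0.17 ± 0.25. The filter on spots kept 4 genes of the list, among them HAT2 but not MSI1, POB3 or HIF1. None of the 4 passed in the analysis restricted by spots, and none of the 9 passed over all genes. At an unadjusted p under 0.05 (limma) 0 of the 9 were lower and 1 was higher, where 27.5% of all genes passed in either direction.

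The SWR1 complex and its partners, which place H2A.Z, had 1 gene lower and 2 higher on 4 of 4 arrays (21.3% and 20.4% of all genes). Their median was 0.35 over 12 of 15 genes. Array 1 decided this value: its median was 0.59, against 0.039 to 0.12 on the other arrays, and without it the median was 0.099 (0.062 with the filter on spots too). SWC7, a subunit of SWR1 whose gene is as short as the core histone genes at 399 bp, gave 0.67, 0.14, 1.03 and 0.64 (0.62 ± 0.36). It rose in the analysis restricted by spots (adjusted p = 0.0391, limma), 1 of 7 listed genes, where 5.31% of all genes rose. VPS71, another subunit, stood at 0.57 ± 0.90. ARP6 was the gene lower on 4 of 4 arrays, but its size varied widely (-2.65 ± 2.86, with -0.34 on array 1 and -6.80 on array 3). YAF9 (-0.34 ± 1.73) changed sign between arrays. The filter on spots kept neither ARP6 nor YAF9 nor VPS71. None of the 12 passed over all genes (lowest adjusted p 0.122, limma). At an unadjusted p under 0.05 (limma) 0 were lower and 1 was higher, where 27.5% of all genes passed in either direction. CSE4, the H3 variant of centromeres, gave 0.32, 0.27, -0.16 and 0.24 (0.17 ± 0.22, adjusted p = 0.471, limma).

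Transcripts of the cell cycle phases were set beside the core histones. Genes transcribed at the G1/S boundary, shortly before or with the core histones, had a median of -0.05 over 18 of 24. Of these, 3 were lower and 2 higher on 4 of 4 arrays (21.3% and 20.4% of all genes). RFA3, a subunit of the single-strand binding protein of replication, gave -0.80, -0.87, -0.72 and -0.68 (-0.77 ± 0.08, adjusted p = 0.0576, limma) and fell in the analysis restricted by spots (adjusted p = 0.0118, limma), 1 of 12 genes, where 11.5% of all genes fell. CDC45, a component of the replicative helicase, stood at -0.83 ± 0.51, TOF1, which guards stalled forks, at 1.25 ± 1.05, and the G1 cyclin gene CLN2 at 0.47 ± 1.15. The filter on spots kept neither CDC45 nor TOF1 nor CLN2. The list's median on arrays 1 to 4 was 0.046, -0.28, 0.037 and -0.20.

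G2/M genes had a median of 0.30 over 10 of 12, with 1 lower and 4 higher on 4 of 4 arrays (21.3% and 20.4% of all genes). HOF1, which acts at the bud neck in cytokinesis, was the lower one at -2.07 ± 0.26 (adjusted p = 0.0522, limma). CDC20, an activator of the anaphase-promoting complex, stood at 1.29 ± 0.86, KIP2, a kinesin, at 0.99 ± 1.47 and IQG1, of the cytokinetic ring, at -0.089 ± 0.35. Of these G2/M genes the filter on spots kept IQG1, but not HOF1, CDC20 or KIP2. M/G1 genes had a median of 0.35 over 9 of 13, with 1 lower and 4 higher on 4 of 4 arrays. SCW11, a wall glucanase-like protein, gave 1.40, 1.09, 0.90 and 1.65 (1.26 ± 0.33, adjusted p = 0.0556, limma), and ASH1, a repressor of daughter cells, 1.31 ± 1.77. MCM3, a subunit of the helicase loaded at origins, gave -1.07, -0.66, -0.74 and -1.06 (-0.88 ± 0.22) and fell in the analysis restricted by spots (adjusted p = 0.0111, limma), 1 of 6 genes, where 11.5% of all genes fell. EGT2, a cell separation gene, stood at -0.18 ± 0.24. Neither SCW11 nor ASH1 was kept by the filter on spots. With the span trend removed the medians were -0.12 for G1/S, 0.17 for G2/M and 0.23 for M/G1, and with the filter on spots -0.12, 0.21 and 0.015 in that order. Without array 4 the M/G1 median was 0.18, or -0.076 with the filter too, and the G1/S median 0.058. No gene of the 3 lists passed over all genes.

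**Figure D5:**
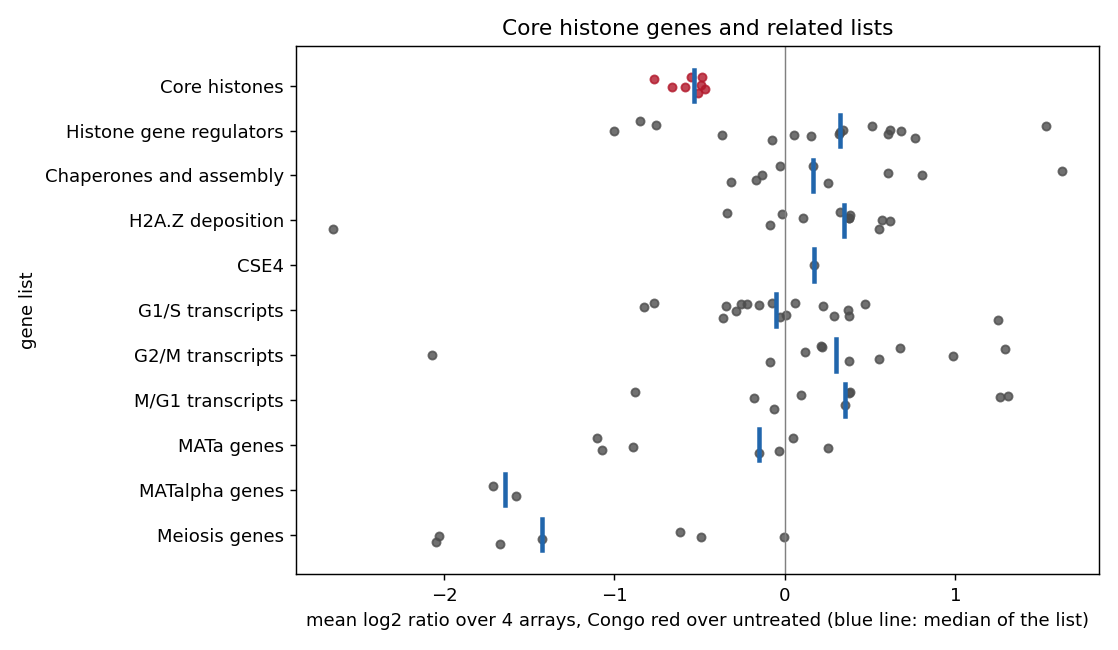
Mean log2 ratio over 4 arrays (x axis) of each measured gene in the core histone set and in the related lists (rows), with a blue line at each list's median. The 8 core genes lie together between -0.77 and -0.47, while the regulators, chaperones and phase lists hold genes on both sides of 0.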

How the data were processed

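The authors deposited 1 log2 ratio of the channels per spot; no source used here states the scanning, filtering, normalization, dyes, numerator or genome build. The value of 16.61, the log2 of 100000, was taken as a placeholder and set to missing (31 to 68 spots an array). Array medians of the deposited log2 values were 0.43, -0.25, 0.30 and 0.64; those over 0.1 from 0 were subtracted. Of 12800 spots, 11138 have 1 gene symbol, 0 several and 1662 are unnamed here. Symbols of 5534 of 5539 genes were updated through the RefSeq table (R64), which also gave spans; no coordinates are printed. The test of each gene's ratio against 0 used limma (version 3.58.1, R 4.3.3; lmFit, eBayes), Benjamini-Hochberg adjusted over all genes, threshold 0.05, and checked on simulated data. Differences between members used exact sign-flip permutation tests over arrays.

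Members, related lists and alternatives were chosen with earlier results of these data known. Named were all 10 members, the 5 genes nearest the core mean, and list genes that passed with or without the filter on spots. From each phase, regulator, chaperone and deposition list the 2 highest and 2 lowest means were named too. Added to these were the remaining HIR genes of the regulator list and some short ribosomal protein genes. Marker lists are given by counts and medians, with the meiosis genes missing from some arrays named. Spans were smoothed by lowess (span 0.67). No sequence is printed, as none was supplied.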

Additional observations from a re-analysis of the deposited data

Results flagged for a closer look

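In 2 of 67 sets of 4 array values 1 array lay far from the other 3 by Dixon's test, which chance gives in about 1 of 20 sets. The mean of the core histone genes minus HHO1 was -0.138 on array 4, against -0.625 to -0.543 on the other arrays. HHO1 was at its lowest on that array. CSE4 was -0.161 on array 3, against 0.242 to 0.323 on the others.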

How the results depend on the processing

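Genes passing over all genes numbered 0 and became 472 with the filter on spots, 93 uncentred, 214 with runs of 400 spots centred, 33 with the span trend removed, 59 with robust and span-trended variances, 219 with filter and span trend, 59 with the filter uncentred, and 336 and 215 with the filter and without arrays 1 and 2. They stayed 0 without any 1 array (0 to 0) unfiltered. The settings that join the filter with another choice were added after the data were seen. With no array turned, means were HTA1 0.235, HTA2 0.332, HTB1 0.191, HTB2 0.199, HHT1 0.167, HHT2 0.010, HHF1 0.154, HHF2 0.124, HTZ1 0.081 and HHO1 0.265, the H2B and H3 copy differences 0.009 and -0.157, and the core mean minus HTZ1 and HHO1 0.096 and -0.089. The core mean minus HHO1 also moved to -0.230 with the span trend removed, and to -0.241 with the filter too. HTZ1 turned to 0.082 with the span trend removed and to 0.163 with the filter too, and HHO1 to 0.058 in the latter and to 0.090 without array 4, with or without the filter. HTB2 minus HTB1 turned to 0.092 and HHF2 minus HHF1 to 0.075 with runs of 400 spots centred. Leaving out 1 array, with or without the filter, gave HTA2 minus HTA1 -0.017 to 0.12, HTB2 minus HTB1 -0.125 to 0.062, HHT2 minus HHT1 0.056 to 0.23 and HHF2 minus HHF1 -0.122 to -0.072; the core mean minus HTZ1 -0.464 to -0.294 and minus HHO1 -0.581 to -0.419; and HHO1 -0.221 to 0.090. The means with no array turned equal the channel order coefficients, because each channel order had 2 arrays. They hold no estimate of the treatment ratio. The cause of the other changes was not tested. No paired analysis was possible because all 4 arrays form 1 group, each already holding both samples. Signal over background was not analysed here.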
